A study of Equus caballus with 4 samples.

Results

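The genes and transcripts described here are 7 metallothionein copies of the horse genome, *MTF1*, the gene of the metal-responsive transcription factor, and the zinc exporter gene *SLC30A1*. These 9 members are among 24905 genes or transcripts with a probe on the array. They were selected on their measured ratios of cells treated with β-hydroxy-β-methylbutyrate (HMB) *v*. control cells, so every ratio of a member is given as a description, with no test. Equine satellite cells (ESC), the resident stem cells of skeletal muscle, were taken from the semitendinosus muscle of colts, which the methods give as 6 animals aged 6 months. They proliferated for 10 days in flasks, were replated, grew on until nearly confluent and were then given a medium with little serum in which they differentiate. HMB, a metabolite of leucine, was present for 24 h from day 2 of differentiation, control cells stayed in the same medium without it, and both were harvested on day 3. Its dose is 50 µg in the labels and 50 µM in the methods. RNA with an integrity number of at least 9.2 was hybridised to 4 two-colour arrays on 1 slide, with HMB-treated cells in Cy5 and control cells in Cy3 each time, as their titles and source names state. The description fields instead call the treated cells GO-treated and end in the same replicate number on each array, and the titles were followed. Because the dyes were never swapped, dye and treatment cannot be told apart in any ratio below, and the labels do not name the colts behind an array.

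Metallothioneins are small proteins rich in cysteine that bind zinc and copper and buffer them in the cell. Their genes lie side by side on one chromosome in mammals and respond to zinc, cadmium, oxidants and glucocorticoids. MTF1 senses free zinc, binds metal response elements before metallothionein genes and before *SLC30A1*, and *SLC30A1* codes for the carrier that moves zinc out of the cell through the plasma membrane. In skeletal muscle, metallothionein mRNA is known to increase during wasting.

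The files list 23 probes of 60 bases for the members, 20 of them for metallothionein copies. All metallothionein probes lie on the plus strand of chr3:8915632-8980121, a stretch of 64.49 kb in the EquCab1 build. The probes that show how the copies differ are printed here from 5′ to 3′. Of the following 4, which lie in coding sequence, the capitals mark cysteine codons in the frame without a stop codon.

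LOC100630653, shared probe: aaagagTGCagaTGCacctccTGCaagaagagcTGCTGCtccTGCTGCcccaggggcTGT

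ENSECAT00000000282: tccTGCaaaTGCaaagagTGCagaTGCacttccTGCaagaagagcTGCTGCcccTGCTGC

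LOC100630148: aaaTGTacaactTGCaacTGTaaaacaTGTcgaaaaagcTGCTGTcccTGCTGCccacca

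LOC100630322: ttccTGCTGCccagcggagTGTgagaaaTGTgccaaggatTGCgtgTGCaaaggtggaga

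The shared probe of *LOC100630653* holds 8 cysteine codons among 20, that of *ENSECAT00000000282* 9 among 20, that of *LOC100630148* 8 among 20 and that of *LOC100630322* 6 among 19 whole codons. The files describe *LOC100630148* as metallothionein 4 and *LOC100630322* as metallothionein 3, and the other copies simply as metallothionein. The first 2 of these probes overlap by 48 bases with 2 mismatches, T30C and C52T, counted from 1 at the 5′ end of the *ENSECAT00000000282* probe, whose base comes first. They are not specific to 1 copy. The files list the shared probe also for the transcripts of *LOC100630858* and *ENSECAT00000000321*, 3 in all, and the *ENSECAT00000000282* probe for those 3 transcripts beside its own, 4 in all.

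The remaining copies are measured by probes at either end of the transcript, of which bases 31 to 60 are printed. Capitals mark the polyadenylation signal AATAAA in the first pair and the ATG of the start codon in the second pair.

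LOC100630858: tgaaatgtttgagtggcAATAAActcattg

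LOC100630543: tatgtgaatgacAATAAAagttattgacct

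LOC100630653, probe at the start of the coding part: ATGgatcccaactgctcgtgccccactggt

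ENSECAT00000000321: cacatcagcttgaaATGgaccccaactgct

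The probe of *LOC100630858* lies at chr3:8980062-8980121 and that of *LOC100630543* at chr3:8946221-8946280. Each is the last of 5 probes that overlap one another by 55 bases or more without a mismatch, so the 5 are repeats of 1 measurement, not 5 independent ones. Between the probes of these 2 copies, the likest pair differed at 13 of 55 bases. The probe at the start of *LOC100630653* lies at chr3:8950033-8950652, and the single probe of *ENSECAT00000000321* at chr3:8969450-8969509. From the ATG on, the printed stretches of these last probes are nearly alike, and whether either reads 1 copy only was not tested. Among the 43580 probes of the array outside the members, 0 shared a run of 18 bases with a metallothionein probe. This search compared probes with probes, so it does not show which transcripts a probe binds.

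The control cells carried most of the myogenic markers looked at. Of 12 myogenic markers, 11 were well above background in control cells on all 4 arrays, among them *MYOD1*, *MYOG* and *DES*. The 12th, *PAX7*, a marker of satellite cells, was not. In the test of all 27383 tested probes with limma, at an adjusted *P* of at most 0.05, 6257 (22.8 %) passed, 3071 (11.2 %) being higher and 3186 (11.6 %) lower with HMB. With 1 probe for each gene, 3490 of 15538 (22.5 %) passed, 1695 (10.9 %) higher and 1795 (11.6 %) lower. Higher probes made up 49.1 % of the calls, but 78.3 % without lowess normalisation (5706 of 7291), 29.9 % of 2226 calls when the channels were not paired by array, and 36.4 % without array 2. The number of calls was lower with any 1 array left out, at 4877, 2573, 2705 and 4957 without arrays 1 to 4. Each of these fits also has fewer arrays than the main one. A Student t-test called 768 probes.

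Of the 11 measured myogenic markers, 10 fell with HMB, and the 11th, *MYMK*, which drives the fusion of myoblasts, had a mean log2 ratio of -0.27 ± 0.26 (adjusted *P* = 0.114). The embryonic myosin gene *MYH3* fell by 1.11 ± 0.47 on the log2 scale (SD, *n* 4; limma adjusted *P* = 0.00846; lower on 4 of 4 arrays), but by 0.21, not past the threshold, without lowess (adjusted *P* = 0.104). Without lowess, or without array 2, 3 or 4, 7 myogenic markers fell, and a Student t-test called 0. The count was 2 without the filter on dim probes, 8 when the channels were not paired and 11 without array 1. All 8 fibroblast markers were above background in control cells, with a summed signal of 380420, 359190, 388160 and 499520 on arrays 1 to 4 (a sum over different probes, to be read between arrays only). Among them, 2 rose, *PDGFRA* by 1.53 ± 0.47 (limma adjusted *P* = 0.00358) and *FAP* by 0.42 ± 0.18 (limma adjusted *P* = 0.0185). The other 6 did not pass, and 4 of them had means below 0, *COL1A1* at -0.54, *COL3A1* at -0.21, *COL1A2* at -0.20 and *THY1* at -0.10. Without lowess 6 fibroblast markers were higher, with *PDGFRA* at 0.93. Of the means below 0, *COL1A2* turned to 1.02 and *COL3A1* to 0.91 in that setting (limma adjusted *P* = 0.00311 for each). *COL1A1* turned to 0.27 and *THY1* to 0.075, neither past the threshold. *FAP* was lost without array 1, 2 or 3, and *COL1A1* fell without array 1 (-0.82, adjusted *P* = 0.0319). The control signal of *PDGFRA* was dim, at 35.2 to 41.8. A Student t-test called 0 fibroblast markers, *PDGFRA* being at an adjusted *P* of 0.0775 in that test. Of 4 leukocyte markers, 3 were above background, with a summed control signal of 16936, 14946, 17167 and 15624. *PTPRC* rose by 0.28 ± 0.13 (limma adjusted *P* = 0.0374), a call lost with any array left out, and was at 0.66 without lowess. *CD68* at -0.29 and *CD14* at 0.02 did not pass, and *ITGAM* was not above background. Without lowess *CD14* passed as well, at 0.30 (limma adjusted *P* = 0.0382). None of 4 endothelial and 0 of 4 adipocyte markers were above background in control cells. The part of these markers in the metallothionein ratios was not tested, and fewer cells of a type cannot be told apart from less mRNA per cell.

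Of the metallothionein copies, *LOC100630858* had the highest ratios. Its 5 probes together gave log2 ratios of HMB over control of 2.59, 3.14, 3.31 and 2.42 on arrays 1 to 4. The mean was 2.86 ± 0.43 (SD, *n* 4), which is 7.28-fold higher in HMB-treated cells. The ratio was thus higher on arrays 2 and 3 than on arrays 1 and 4, and the lowest array was still far above 0. The probes told the same story on each array: their means ran from 2.84 to 2.91, and on no array did 2 of the 5 differ by more than 0.14, whereas the arrays differed by 0.89. In the probe that ends last, the processed signal, an intensity in arbitrary units after subtraction of background and correction for dye, was 122, 126, 126 and 129 in control cells. In HMB-treated cells it was 752, 1122, 1280 and 659. The control signal therefore hardly varied, and the spread of the ratio came with the HMB channel.

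The copy *LOC100630653* is read by 2 probes that gave different ratios. The probe at the start of the coding part had ratios of 2.22, 2.66, 2.72 and 2.42, with a mean of 2.51 ± 0.23, or 5.68-fold. The shared probe had ratios of 0.95, 1.13, 1.08 and 0.96, with a mean of 1.03 ± 0.09, or 2.04-fold. The first probe exceeded the second on 4 of 4 arrays, by between 1.27 and 1.64 and on average by 1.47 ± 0.16, many times the spread of either. Processed signals of the first probe were 595, 583, 601 and 608 in control cells and 2781, 3698, 3960 and 3243 in HMB-treated cells. Those of the shared probe were 4999, 4523, 5470 and 5832 in control cells and 9683, 9921, 11552 and 11349 in HMB-treated cells. A mean over both probes would describe neither, so they are kept apart. The files place the shared probe at chr3:8950686-8976550, a span of 25865 bases that takes in *ENSECAT00000000282* and *ENSECAT00000000321*. What share of its signal each listed transcript gave was not tested.

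The copy *LOC100630543* had ratios of 1.47, 1.68, 1.37 and 1.36 over its 5 probes, with a mean of 1.47 ± 0.15, or 2.77-fold. Its probes differed by at most 0.07 on any array. In the probe that ends last, the processed signal was 8853, 7636, 11617 and 12847 in control cells and 24459, 25010, 30604 and 33497 in HMB-treated cells. Here both channels were brighter on arrays 3 and 4, so that the ratio varied little, and no spot was saturated.

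For *ENSECAT00000000282* the ratios were 1.12, 1.31, 1.19 and 1.09, with a mean of 1.18 ± 0.10, or 2.26-fold, and its signals were 1758, 1571, 2012 and 1971 in control cells and 3822, 3893, 4581 and 4206 in HMB-treated cells. The ratio of this probe lay close to that of the shared probe of *LOC100630653*, with which it has 46 of 48 overlapping bases and 3 listed transcripts in common. The ratios of *ENSECAT00000000321* were 0.45, 0.67, 0.97 and 0.59, with a mean of 0.67 ± 0.22, or 1.59-fold. Its signals were 442, 459, 373 and 404 in control cells and 604, 731, 729 and 609 in HMB-treated cells. On every array the ratio of this copy was above 0 and below those of the copies named before it.

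Metallothionein 3, *LOC100630322*, was dim. Its only probe, at chr3:8934546-8934605, had processed signals of 17.2, 9.51, 13.0 and 13.5 in control cells, which were well above background on 0 of 4 arrays. In HMB-treated cells they were 17.4, 21.1, 20.8 and 25.8, well above background on 4 of 4. The probe was thus tested only through the channel in which it is brighter, and its ratios of 0.01, 1.15, 0.68 and 0.94, with a mean of 0.69 ± 0.49, are not a measured fold, and none is given. The mean ratio was 0.23 with normexp and loess and 0.10 without lowess, and array 1 shows a ratio near 0.

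Metallothionein 4, *LOC100630148*, was the only copy with ratios below 0. Of its 5 probes at chr3:8915632-8916239, which overlap by 53 bases or more, 1 was above background on all arrays, with ratios of -0.13, -0.26, -0.22 and -0.26. Its mean was -0.22 ± 0.06, or 0.859 times the control. Its signals were 128, 108, 105 and 81.3 in control cells and 117, 90.0, 90.3 and 67.9 in HMB-treated cells. The other 4 probes were not well above background on all arrays in either channel and were not tested. Their control signals ran from 4.46 to 45.2, so they did not repeat the signal of the bright probe that they overlap. Their mean ratios were -0.04, -0.44, -0.60 and -1.06, with single values from -1.91 to 0.25, so that these dim probes, shifted by a few bases, did not share the even ratios of the bright one. The measured ratio of this copy therefore rests on 1 probe, the bright one, which averaged -0.084 without lowess. In the deposited ratios, without the filter on dim probes, the mean over all 5 probes was -0.47, a value that includes the 4 dim ones. Apart from *LOC100630322*, whose control signal was not measured, the sign of every copy, *MTF1* and *SLC30A1* was the same under each normalisation run.

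**Figure D1:**
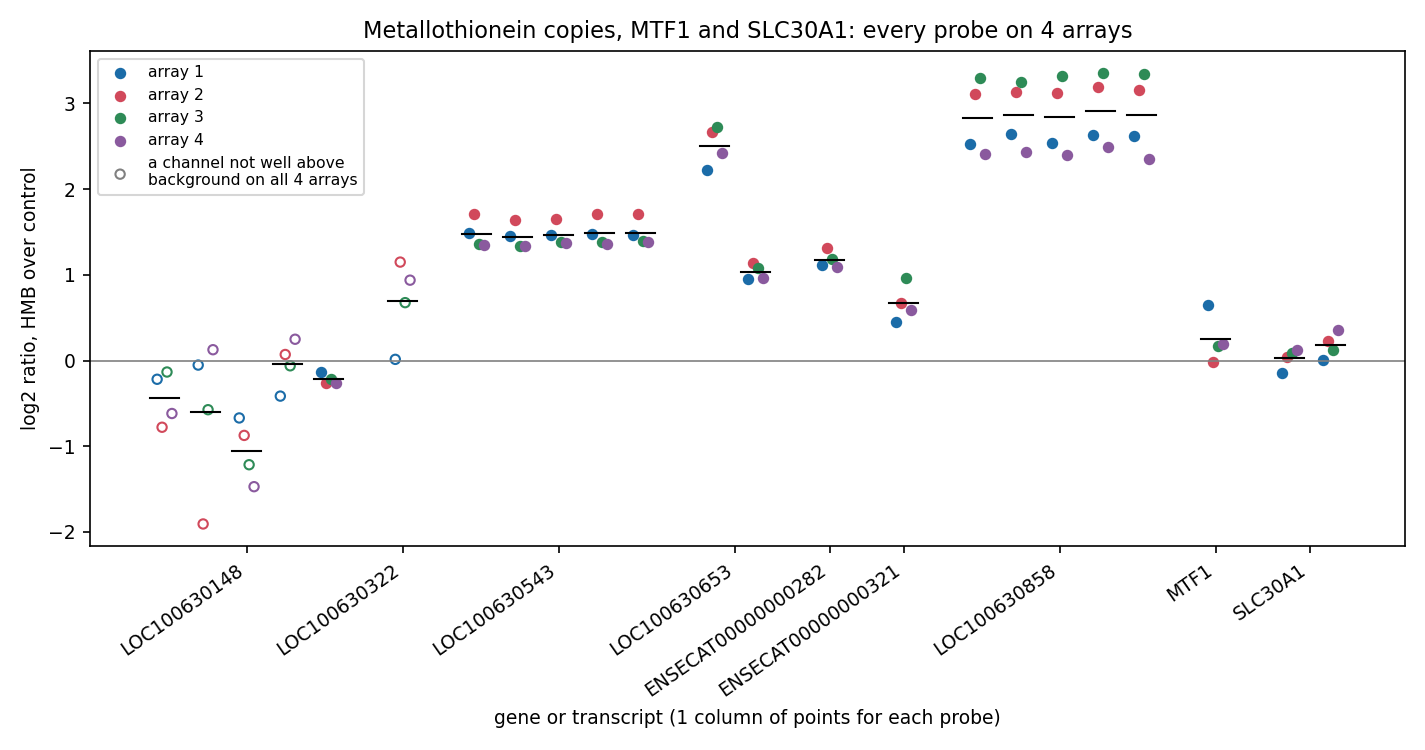
Log2 ratio of HMB-treated over control cells for each of the 23 probes of the members (vertical axis), with 1 column of points for each probe, 1 colour for each of 4 arrays, and a bar at the mean. Open circles are probes with a channel not well above background on all arrays. The 5 probes of *LOC100630858* lie together, at means from 2.84 to 2.91, while the 2 probes of *LOC100630653* lie apart, at 2.51 and 1.03.

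**Figure D2:**
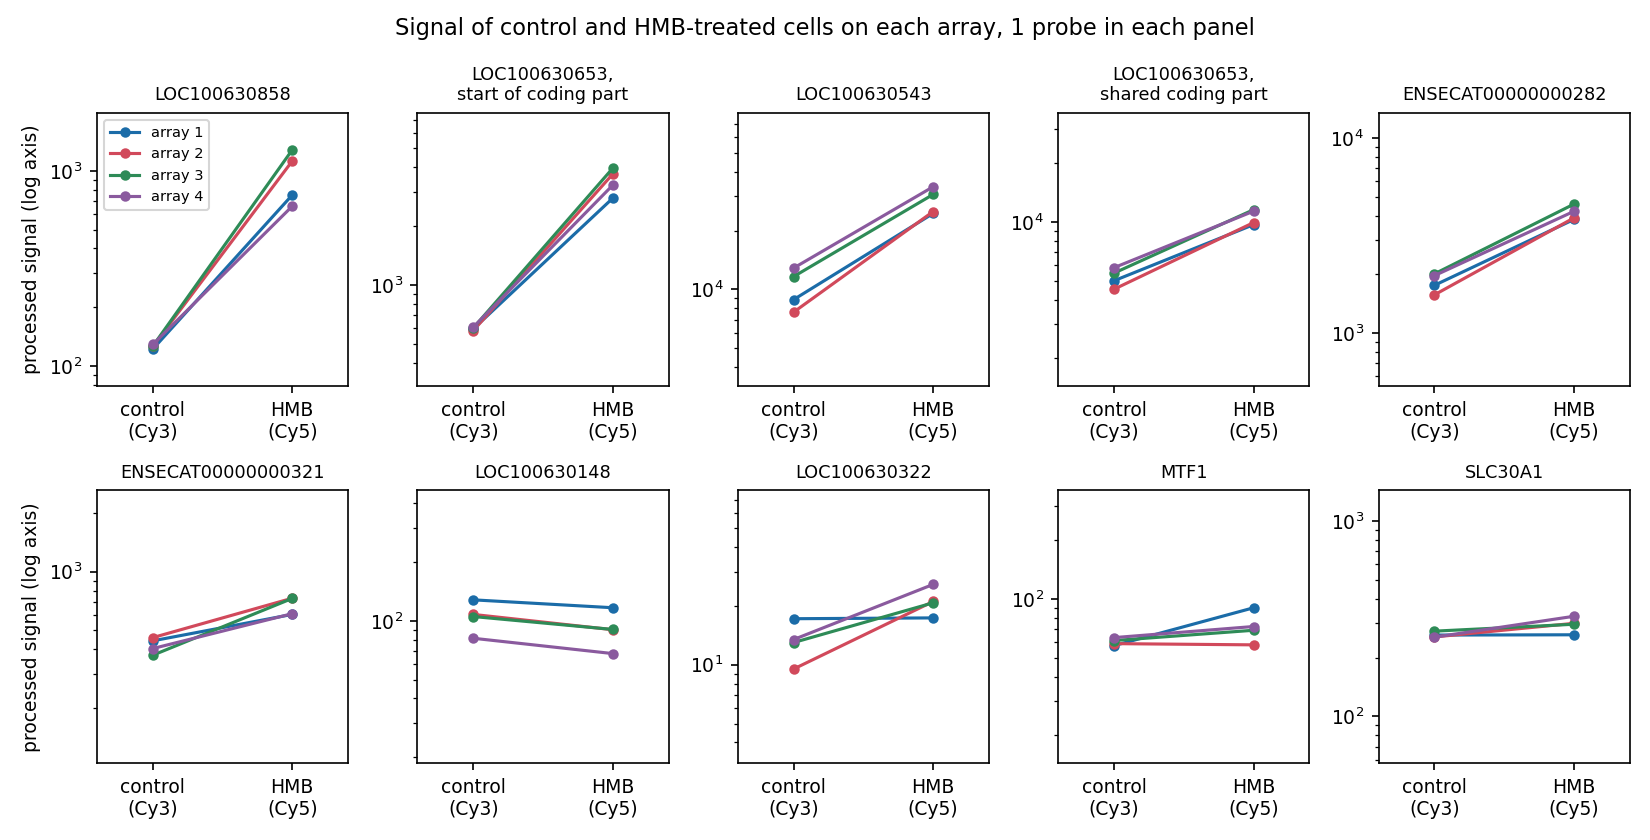
Processed signal in arbitrary units on a log axis in control cells (Cy3) and HMB-treated cells (Cy5), joined for each of 4 arrays, in 1 panel for each probe. Panels have different ranges and levels are not comparable between them. The lines of *LOC100630858* start from control signals of 122 to 129 and end between 659 and 1280, and those of *LOC100630148* slope slightly down.

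In order of the mean ratio, the members ran from *LOC100630858* through the start probe of *LOC100630653*, *LOC100630543*, *ENSECAT00000000282*, the shared probe of *LOC100630653*, *ENSECAT00000000321*, *MTF1*, the first and second probes of *SLC30A1* to *LOC100630148*. *LOC100630322* is left out of this order, as its control signal was not measured. The step from *LOC100630858* to the start probe of *LOC100630653* was 0.36 ± 0.26 and, on array 4, 0.00, so these neighbours were not set apart on every array, and it was 0.12 with normexp and loess and 0.04 without lowess. The widest step was that from this probe to *LOC100630543*, 1.03 ± 0.24 and at least 0.76 on each array, or 0.67 without lowess. *LOC100630543* exceeded *ENSECAT00000000282* by 0.29 ± 0.09 and on 4 of 4 arrays, and by 0.53 without lowess. *ENSECAT00000000282* exceeded the shared probe of *LOC100630653* by 0.15 ± 0.03, also on 4 of 4 arrays, but by 0.073 without lowess, a small step between probes that share transcripts. The shared probe exceeded *ENSECAT00000000321* by 0.36 ± 0.18 on 4 of 4 arrays, and by 0.58 without lowess. Further down the order, neighbouring genes did not differ on every array, with steps of 0.42 ± 0.44 from *ENSECAT00000000321* to *MTF1* (3 of 4 arrays) and 0.07 ± 0.40 from *MTF1* to the first probe of *SLC30A1* (2 of 4 arrays). Without lowess the first of these steps was 0.64, and *MTF1* lay below the mean of *SLC30A1*, at 0.14 and 0.21. The probes of *SLC30A1* differed by 0.15 ± 0.09 in the same direction on 4 of 4 arrays, and the second exceeded *LOC100630148* by 0.25 ± 0.18, on 3 of 4 arrays. These steps compare ratios, not levels, and they show unequal ratios only.

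The probe of *MTF1*, at chr2:18241532-18243348, had signals of 57.7, 59.0, 61.2 and 63.4 in control cells and 90.1, 58.2, 69.1 and 72.3 in HMB-treated cells. Its ratios were 0.64, -0.02, 0.18 and 0.19, with a mean of 0.25 ± 0.28, or 1.19-fold. Array 1 alone was far above 0, and without it the mean was 0.11. It was 0.14 both with normexp and loess and without lowess.

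The probes of *SLC30A1* lie at chr5:18148511-18148634. The first, at chr5:18148575-18148634, had signals of 261, 255, 273 and 255 in control cells and 262, 299.6, 296 and 326 in HMB-treated cells, and ratios of 0.00, 0.23, 0.12 and 0.36 with a mean of 0.18 ± 0.15. The second, at chr5:18148511-18148570, had ratios of -0.15, 0.04, 0.09 and 0.12 with a mean of 0.03 ± 0.12. Over both probes the mean was 0.10 ± 0.13, or 1.07-fold, within the spread of the arrays. It was 0.16 without array 1, 0.06 without array 4 and 0.21 without lowess, a setting which moved the median over all tested probes from 0.02 to 0.15. The ratios of 5 copies lay above the median of 0.02 on every array, those of *MTF1* and of the zinc exporter on 3 of 4.

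**Figure D3:**
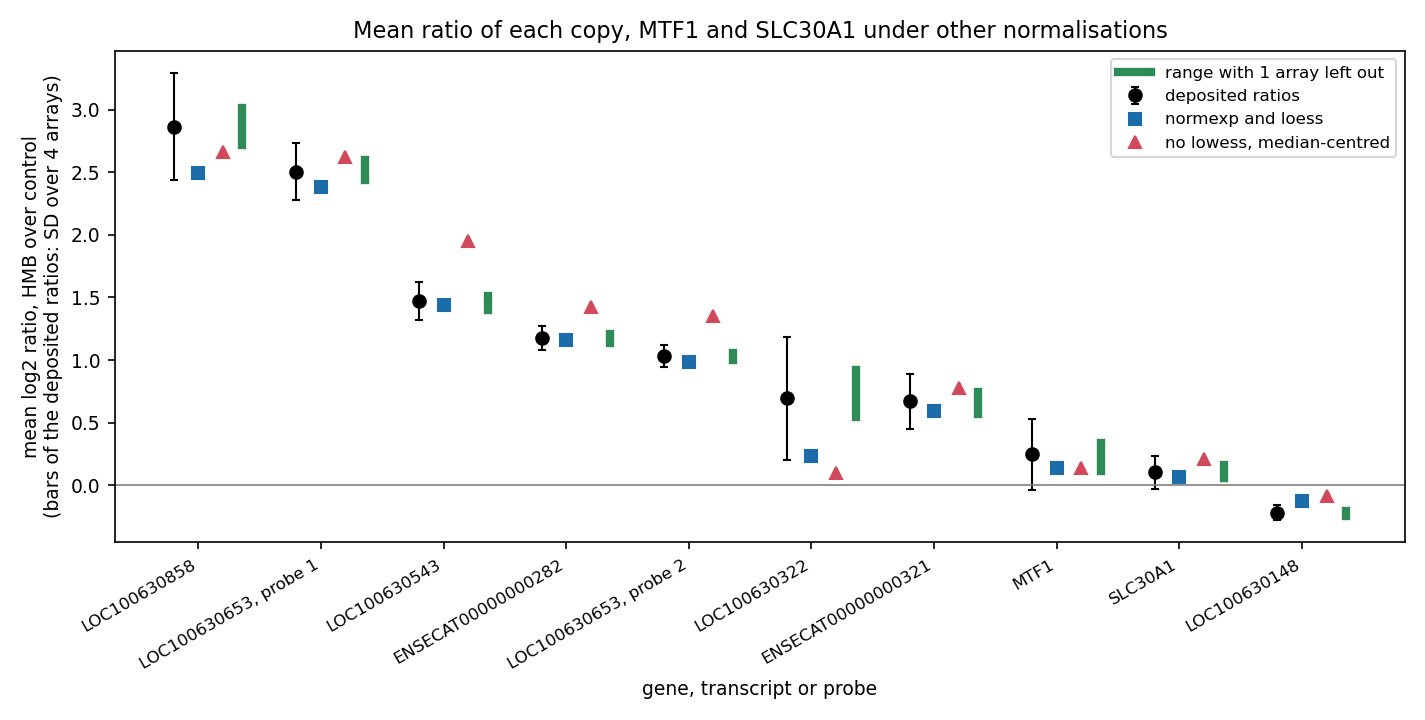
Mean log2 ratio of each copy, *MTF1* and *SLC30A1* (vertical axis) from the deposited ratios, with the SD over 4 arrays as bars, beside the mean with normexp and loess, the mean without lowess and the range with 1 array left out. Probe 1 of *LOC100630653* is that at the start of the coding part and probe 2 the shared one. Without lowess *LOC100630543* moved from 1.47 to 1.95 and *LOC100630322* from 0.69 to 0.10. The control signal of *LOC100630322* was not measured, so its sign carries no meaning. No mean of the measured members changed its sign.

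The files describe 2 further probes as metallothionein. That of *MTL5*, which codes for tesmin, a testis protein, lies on chromosome 12, and its mean ratio was 0.07 ± 0.16 (limma adjusted *P* = 0.561, higher on 3 of 4 arrays). That of *XM_003364581*, named as like metallothionein 2B, lies among the copies at chr3:8959557-8959616. It was above background on 2 of 4 arrays in each channel and was not tested, and its ratios of 0.01, 0.39, 0.48 and -1.22 had no common direction.

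Between the first and the last copy lie 3 further tested probes that carry no gene name, and the mean ratios of all 3 were above 1. As they lie among copies selected on their ratios, they are described like the members, with no test. A_69_P116591, at chr3:8945830-8945889 and 0.327 kb before the nearest probe of *LOC100630543*, had ratios of 1.05, 1.18, 1.02 and 1.01 and a mean of 1.06 ± 0.08, or 2.09-fold. A_69_P127441, at chr3:8951652-8951711, just beyond the start probe of *LOC100630653*, had ratios of 2.32, 2.85, 3.34 and 2.46 with a mean of 2.74 ± 0.46. The probe of the liver cDNA BM780438 is placed 5 bases further and had ratios of 1.88, 2.37, 2.70 and 2.36 with a mean of 2.33 ± 0.34. The control signal of the last 2 was above background on 3 of 4 arrays, so they were kept through the HMB channel alone and no fold is given. The files list this cDNA also for the shared probe of *LOC100630653*, so it shares a transcript with a member. These 2 probes overlap by 55 bases with 7 mismatches and are close to repeats of 1 measurement. Without lowess A_69_P127441 was at 1.52 and BM780438 at 1.19, and with normexp and loess they were at 1.49 and 1.19.

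Outside the copies, of 18 other genes or transcripts within 500 kb, 17 were tested, 0 of which rose and 3 of which fell. The share past the threshold was 17.6 %, against 22.5 % of all genes in either direction and 11.6 % lower. The median ratio was -0.06 against 0.02 over all tested genes. At an unadjusted *P* below 0.05, limma gave 7 of the 17, and 37.9 % of all genes. Without lowess 1 of the 17 fell, DN508478, and 1 rose, *NUDT21*, at 0.43 (adjusted *P* = 0.0333). *HERPUD1*, a gene of the endoplasmic reticulum stress response, fell by 0.87 ± 0.21 (limma adjusted *P* = 0.00305, lower on 4 of 4 arrays), and by 0.24, no longer past the threshold, without lowess (adjusted *P* = 0.0636), and its call was also lost in a Student t-test (adjusted *P* = 0.0632). The placenta cDNA DN508478 fell by 0.91 ± 0.15 (limma adjusted *P* = 0.00166), with -0.55 under normexp and loess and -0.51 without lowess. *SLC12A3*, a sodium and chloride carrier, fell by 0.57 ± 0.33 (limma adjusted *P* = 0.0249), and this call was lost with normexp and loess (-0.21), without lowess (-0.28), without array 1 (-0.60, adjusted *P* = 0.0604) and without array 3 (-0.60, adjusted *P* = 0.0695). Among those that did not pass, the highest was *PLLP* at 0.21 (adjusted *P* = 0.0848) and the lowest *OGFOD1* at -0.31 (adjusted *P* = 0.0641). The nearest tested neighbour on the side of metallothionein 4 was *BBS2*, 71.6 kb away, at 0.076 ± 0.11, with array 4 apart from the rest at -0.086. On the other side it was *NUP93*, a nuclear pore gene 142 kb away, at -0.0039 ± 0.12.

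**Figure D4:**
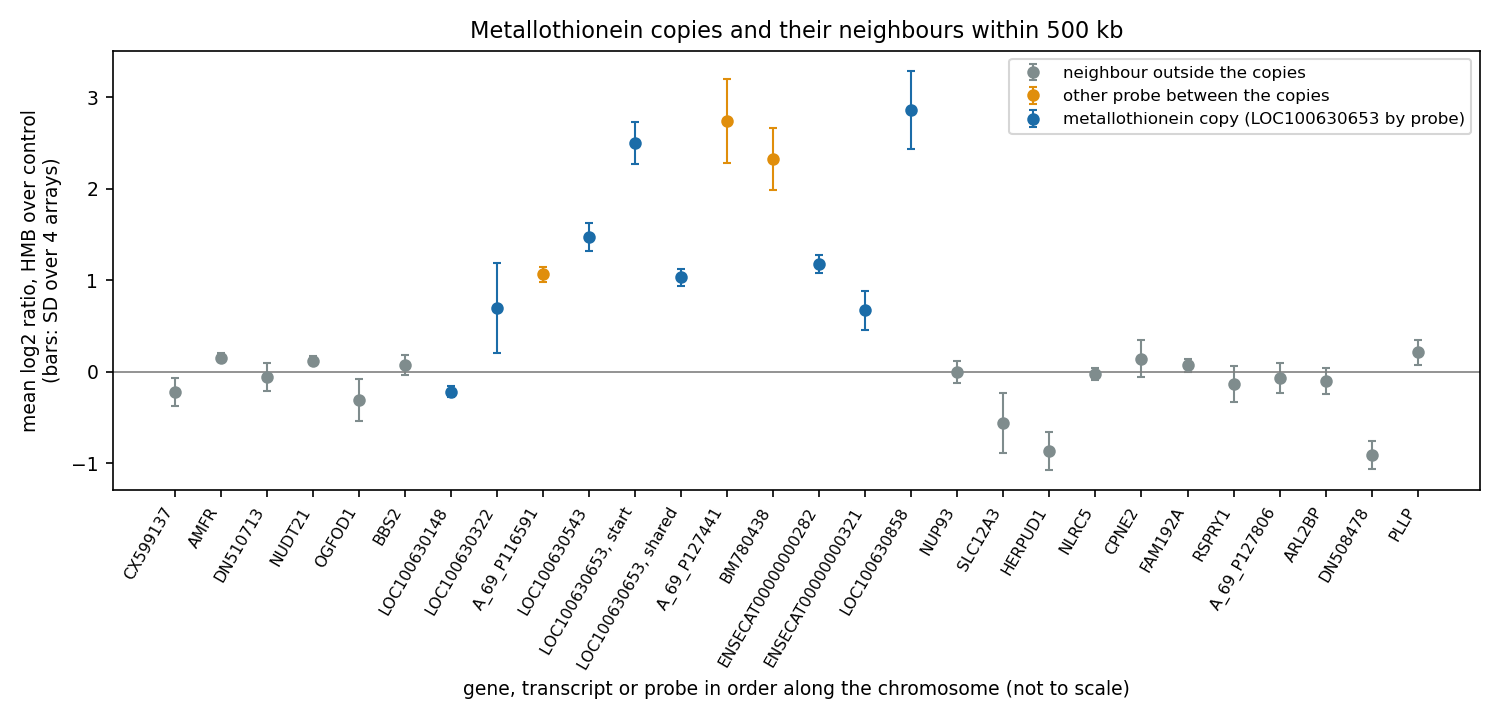
Mean log2 ratio of HMB-treated over control cells (vertical axis, bars are the SD over 4 arrays) of the metallothionein copies, of other probes between them and of genes within 500 kb on either side, in their order along the chromosome and not to scale. *LOC100630653* has a point for each probe. Mean ratios above 1 are seen only at the copies and between them, where the 3 unnamed probes reach 1.06, 2.74 and 2.33. The values 2.74 and 2.33 are not measured sizes, as the control signal of these probes was above background on 3 of 4 arrays. Neighbours outside the copies lie between -0.91 and 0.21.

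Zinc exporters other than *SLC30A1* carry zinc out of the cytosol, several of them into vesicles. Of 9 such genes 6 were tested, and 0 passed in limma, against 22.5 % of all genes (10.9 % higher and 11.6 % lower); 2 had an unadjusted *P* below 0.05, against 37.9 % of all genes, and a Student t-test also called 0. The median ratio was 0.13 against 0.02 over all genes. The highest was *SLC30A4* at 0.23 ± 0.20 (adjusted *P* = 0.119) and the lowest *SLC30A5* at -0.10 ± 0.22 (adjusted *P* = 0.474), for which array 4 gave -0.43 and the others -0.01 to 0.03. A count of 0 was not a stable one, since 1 exporter passed without lowess and 3, all higher, when the tested probes of a gene were averaged in place of taking its brightest one.

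Zinc importers bring zinc into the cytosol. Of 14 genes 11 were tested, of which 2 rose, 0 fell and 9 did not pass, with a median of 0.07. The share past the threshold was 18.2 %, against 22.5 % of all genes in either direction and 10.9 % higher. *SLC39A10* had ratios of 0.52, 0.32, 0.48 and 0.90, a mean of 0.56 ± 0.24 (limma adjusted *P* = 0.0141). *SLC39A14*, which also carries iron and manganese, had ratios of 0.54, 0.26, 0.41 and 0.52, a mean of 0.43 ± 0.13 (limma adjusted *P* = 0.0106). Both were thus higher on 4 of 4 arrays, and both calls were kept with each array left out. A Student t-test called 0 importers, and 1 was called when the channels were not paired and 1 without the filter on dim probes. Of the others, *SLC39A3* was highest at 0.27 ± 0.26 (adjusted *P* = 0.108), with 0.66 on array 1 and 0.12 to 0.16 on the rest, and *SLC39A6* lowest at -0.23 ± 0.23 (adjusted *P* = 0.128).

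Copper is the other physiological metal of metallothioneins. Of 16 copper genes 12 were tested, 4 of which passed (33.3 % against 22.5 % of all genes), 2 higher and 2 lower, and 8 did not, with a median of 0.02. The copper importer *SLC31A1* rose by 0.63 ± 0.12 (limma adjusted *P* = 0.00341) and the metalloreductase *STEAP3* by 0.51 ± 0.16 (limma adjusted *P* = 0.00927), each on 4 of 4 arrays, with 0.36 and 0.30 under normexp and loess. The copper chaperone *ATOX1* fell by 0.47 ± 0.24 (limma adjusted *P* = 0.0210), a call lost without array 2 (adjusted *P* = 0.0576), array 3 (adjusted *P* = 0.0847) or array 4 (adjusted *P* = 0.0529) and without lowess (-0.18). *CP*, coding for the copper protein ceruloplasmin, had ratios of -1.24, -1.35, -0.72 and -0.44 and fell by 0.94 ± 0.43 (limma adjusted *P* = 0.0114), but by less with normexp and loess (-0.42) and without lowess (-0.48). Of those not past the threshold, *COX17* was highest at 0.23 (0.66 without lowess, adjusted *P* = 0.0508) and *SCO2* lowest at -0.11 (0.13 without lowess). Without lowess 4 copper genes were higher and 1 lower, and a Student t-test called 0.

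Of 16 iron genes 12 were tested, and 1 rose, 0 fell and 11 did not pass, with a median of 0.06. The share past the threshold was 8.33 %, against 22.5 % of all genes in either direction and 10.9 % higher. The gene that rose was *ACO1*, an iron sensor, at 0.29 ± 0.17 (limma adjusted *P* = 0.0497), with 0.54 on array 1 and 0.19 to 0.21 on the others. Its call was lost whichever array was left out, at adjusted *P* of 0.0775, 0.124, 0.124 and 0.0711 without arrays 1 to 4. Among those not past the threshold, *TF* was highest at 0.23 ± 0.12 (adjusted *P* = 0.0592; control signal above background on 3 of 4 arrays; 0.051 with normexp and loess and -0.033 without lowess) and the iron exporter *SLC40A1* lowest at -0.46 ± 0.86 (adjusted *P* = 0.308), with -1.74 on array 4 and -0.14 to 0.11 on the rest. Its HMB signal was above background on 3 of 4 arrays, so its mean and its place as the lowest are not measured values. The directions moved with the setting, with 2 higher and 1 lower under normexp and loess, 3 higher without lowess, 1 higher and 2 lower without the filter on dim probes, and 1 lower in a Student t-test.

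Oxidants are known to raise metallothionein mRNA, and the genes of that response were described next. Of 18 genes 17 were tested, and 4 rose, 0 fell and 13 did not pass, with a median of 0.17. The share past the threshold was 23.5 % against 22.5 % of all genes in either direction and 10.9 % higher. *OSGIN1* passed (limma adjusted *P* = 0.00887) through the HMB channel alone, as its control signal was above background on 1 of 4 arrays, so its mean of 0.57 ± 0.20, or 0.07 without lowess, is not a measured size. With both channels required above background, 3 of 16 genes passed. Glutathione reductase, *GSR*, rose by 0.32 ± 0.13 (limma adjusted *P* = 0.0244) and glutathione peroxidase *GPX1* by 0.28 ± 0.11 (limma adjusted *P* = 0.0306), and their means were 0.53 and 0.70 without lowess. Without array 2 only *OSGIN1* passed, and 8 genes passed without lowess. Leaving out single arrays also ended the calls of *GSR* (arrays 2, 3 and 4) and *GPX1* (arrays 1, 2 and 3), and when the channels were not paired 0 passed. The haem oxygenase gene *HMOX1* was highest among the rest at 0.34 ± 0.34 (adjusted *P* = 0.106) and passed without array 3, at 0.49 (adjusted *P* = 0.0492). Catalase, *CAT*, was lowest at -0.25 ± 0.22 (adjusted *P* = 0.108), with -0.57 on array 4 and -0.17 to -0.10 on the others.

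Heat shock genes respond to some of the same metals. Of 18 genes 14 were tested, and 8 fell, 0 rose and 6 did not pass, with a median of -0.31. The share past the threshold was 57.1 %, against 22.5 % of all genes in either direction and 11.6 % lower. But without lowess only 2 fell and 4 rose, and the means of 7 of the 14 changed sign. *CRYAB*, a small chaperone of muscle, fell by 1.02 ± 0.26 (limma adjusted *P* = 0.00297), and by 0.38 without lowess. *HSPB8* fell by 0.72 ± 0.39 (limma adjusted *P* = 0.0198), a call lost without array 2, 3 or 4 (adjusted *P* between 0.0505 and 0.0745). *HSPH1* fell by 0.42 ± 0.15 and *HSPA1A* by 0.33 ± 0.17, with -0.17 and -0.11 without lowess. The means of *HSPB1* (-0.41 ± 0.18), *HSP90AB1* (-0.37 ± 0.13), *HSPA8* (-0.31 ± 0.17) and *HSP90AA1* (-0.31 ± 0.19) turned to 0.32, 0.57, 0.41 and 0.047 without lowess, so their direction rests on the normalisation. The same holds for *HSPA5*, lowest among those not past the threshold, at -0.27 ± 0.31 and 0.35 without lowess, while *HSPA1L* was highest at 0.15 ± 0.17. The count was 1 without array 2 and 1 without array 3, where only *CRYAB* passed, and 5 without array 4. The call of *HSPA8* was lost without array 1 as well (adjusted *P* = 0.0879), and a Student t-test called 0.

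Glucocorticoids raise metallothionein mRNA as well. Of 19 genes of that response 11 were tested, 4 of which passed (36.4 % against 22.5 % of all genes), 3 higher and 1 lower, and 7 did not, with a median of 0.04. *ERRFI1* rose by 0.60 ± 0.36 (limma adjusted *P* = 0.0262), the kinase gene *SGK1* by 0.52 ± 0.22 (limma adjusted *P* = 0.0145) and *FKBP5*, a chaperone of the glucocorticoid receptor, by 0.34 ± 0.13 (limma adjusted *P* = 0.0215). *FOXO1* fell by 0.46 ± 0.19 (limma adjusted *P* = 0.0150), a call lost without lowess (-0.27, adjusted *P* = 0.0565), where 0 genes of this list were lower. The count was 1 without array 2, where *SGK1* alone passed, and 2 without array 3, where *FKBP5* and *FOXO1* were lost, *ERRFI1* was also lost without array 1 (adjusted *P* = 0.0777) or array 4 (adjusted *P* = 0.0532), and a Student t-test called 0. Without array 4 the list had 2 lower genes in place of 1. Of the rest, *GLUL* was highest at 0.15 ± 0.10, with 0.30 on array 4 and 0.08 to 0.10 on the others, and *FOXO3* lowest at -0.30 ± 0.22 (adjusted *P* = 0.0643).

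**Figure D5:**
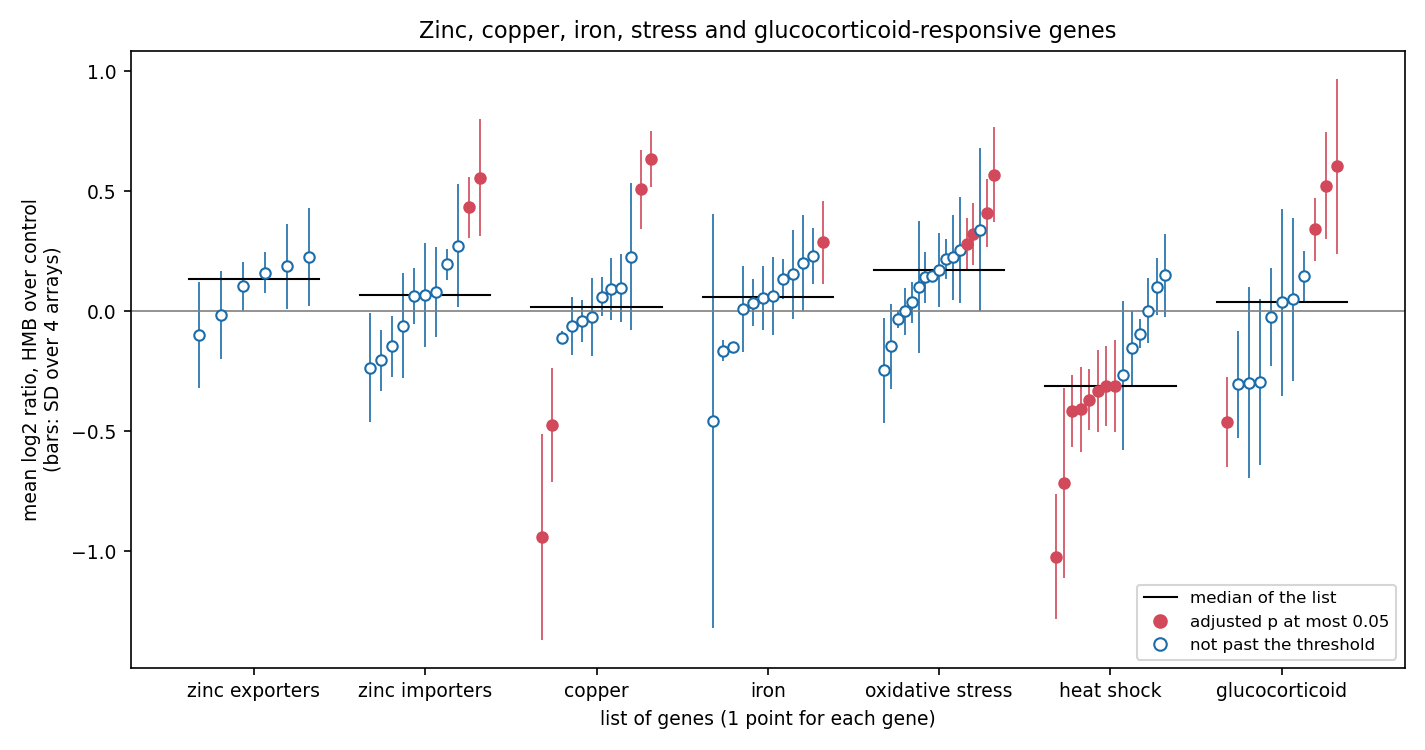
Mean log2 ratio of HMB-treated over control cells (vertical axis, bars are the SD over 4 arrays) of each tested gene in 7 lists, with filled red points past an adjusted *P* of 0.05 in limma, open blue points not past it and a line at the median of each list. Medians run from -0.31 for heat shock genes, whose direction turns without lowess for 7 of 14 genes, to 0.17 for oxidative stress genes. In the zinc exporter list 0 of 6 genes passed.

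Over the 16 tested metallothionein probes the mean ratio was 1.56, 1.92, 1.86 and 1.54 on arrays 1 to 4. Of these probes 10 are repeats from *LOC100630858* and *LOC100630543*, and 1 is that of *LOC100630322*, whose control signal was not measured, so this mean leans towards 2 copies and is no value of a typical one. The 5 named genes nearest to it over the arrays were *DRAM1*, *SERPIND1*, *STAT4*, *DKK1* and *PDGFRA*. The control signal of the first 3 was not above background on all arrays (0, 2 and 0 of 4), so their ratios were not measured and their places in this order carry no meaning. *DKK1*, an inhibitor of Wnt signalling, had ratios of 0.87, 1.58, 1.39 and 2.06, and *PDGFRA* of 1.09, 1.38, 1.46 and 2.19. Both were highest on array 4, where the metallothionein mean was lowest. Nearness over 4 arrays is a description of size and says nothing of shared control.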

How the data were processed

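ESC with and without HMB were hybridised against each other on 4 two-colour horse arrays, *n* 4. Spots were read by the authors with Feature Extraction, version 10.10.1.1 per the file headers, which differs from the version in the methods. Each deposited file holds raw intensities, namely mean spot signal and median local background, together with processed intensities from which background was subtracted and dye effects removed. The authors' deposited log10 ratio, Cy5 over Cy3, follows linear and lowess normalisation. Further deposited columns are 0 or 1 marks from Feature Extraction: well above background, non-uniform, outlying, saturated. Log10 ratios in the summary table of the deposit were the same.

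Ratios were brought to the log2 scale by a factor of 3.32. Control spots (1417 on each array) were left out, as were spots with a non-uniform or outlier mark (11, 17, 32 and 15 on arrays 1 to 4), and repeated spots of a probe were averaged. Testing a probe required 1 channel or both to be well above background throughout and at least 3 values, or 2 with an array left out. This left 27383 of 43603 probes, and 19 of the 23 member probes. Tests used limma 3.58.1 in R 4.3.3 with an intercept alone, two-sided, and *P* values were adjusted after Benjamini and Hochberg over all tested probes at a threshold of 0.05. Tables and figures were made with data.table (version 1.17.8), Python 3.11.15, numpy 2.4.6, pandas 2.3.3 and matplotlib 3.10.9. The limma step was also tested on simulated data, in which the changed probes were known. The ratio pairs both channels of an array. The labels do not name the colts of an array, so *P* values measure only the spread between arrays, and 4 arrays limit the precision. Median signal over background was 3.52, 3.16, 3.52 and 3.82 in Cy3 and 4.68, 5.85, 4.81 and 4.74 in Cy5.

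A gene was represented by its brightest tested probe. Tested probes were named by the files (17398), by the RefSeq gene table (949), by full name (37) or by accession only (8999), and 6 of the 9 members were in that table, which served for names only. Members and lists were chosen with earlier results of these data known. Named are all members, other probes described as metallothionein, every list gene past the threshold with the highest and lowest of the rest, and the 5 genes nearest to the copies. The values of 1 list gene are not reported here, and the counts of its list are those of the whole list. Matching by full name and gene ID was widened after list values had been seen, and changed some counts. The separation of probes between the copies from other neighbours, the search for runs of 18 bases, the markers singled out and the probes printed were also chosen after values were seen. Protein and promoter sequences were not used here.

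Lists, neighbours, members, markers, *DKK1* and *MTL5* were recomputed with normexp (offset 50) and loess, and without lowess, each array then being centred on the median of all its probes other than controls, which left a median of 0.15 over the tested ones. The test was replaced by a Student t-test of each probe (the study's supplement names a Student test), by limma with an intensity trend and a robust prior, and by a comparison of unpaired channels. Dim probes were all kept, or both channels had to be bright enough. Other alternatives kept the marked spots, took the ratios of the summary table, averaged the tested probes of a gene (lists and neighbours only), or left out each array in turn.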

Additional observations from a re-analysis of the deposited data

Results flagged for a closer look

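In each of the 90 sets of 4 array values looked at, an array was picked out when its distance to the nearest of the other 3 was large against the whole range. Chance alone does so in about 1 in 20 sets, and 8 were found. Array 4 stood apart for 5 genes, with log2 ratios of -0.43 for *SLC30A5* (others -0.01 to 0.03), -1.74 for *SLC40A1* (others -0.14 to 0.11; HMB signal above background on 3 of 4 arrays), -0.57 for *CAT* (others -0.17 to -0.10), 0.30 for *GLUL* (others 0.08 to 0.10) and -0.086 for *BBS2* (others 0.12 to 0.15). Array 1 stood apart for 2 genes, at 0.66 for *SLC39A3* (others 0.12 to 0.16) and 0.54 for *ACO1* (others 0.19 to 0.21). On array 2 the median Cy5 signal was 5.85 times the local background, against 4.68 to 4.81 on the other arrays. The values of the metallothionein copies, *MTF1* and *SLC30A1* were not among those picked out.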

How the results depend on the processing

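With both channels required above background *LOC100630322* has no value. Of 109 recomputed means of the members 48 were the same value because the setting leaves the ratio as it is. Of the other 61, 54 moved by less than their SD over arrays, and none changed sign. Values of *LOC100630322* are among them, but its control signal was not measured, so its sign carries no meaning. Without lowess the mean log2 ratio became 1.95 for *LOC100630543*, 1.43 for *ENSECAT00000000282*, 1.35 for the shared probe of *LOC100630653*, 0.10 for *LOC100630322* and -0.084 for *LOC100630148*. *LOC100630148* was at -0.13 with normexp and loess and, over all 5 probes without the filter on dim probes, at -0.47. Among 736 values of 57 single genes 617 kept their side of the threshold, 110 lost and 4 gained the call, and 5 turned with a call in either setting, all without lowess: *HSP90AA1* (0.047), *HSP90AB1* (0.57), *HSPA5* (0.35), *HSPA8* (0.41) and *HSPB1* (0.32). Another 18 values changed sign with no call in either setting, so that 23 did in all, 16 of them without lowess. The cause was not tested.

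Changed probes numbered 768 with a Student t-test, 3690 without the filter and 2573 to 4957 with 1 array left out. With that test 0 zinc importers, 0 copper, 1 iron (lower), 1 oxidative stress, 0 heat shock and 0 glucocorticoid-responsive genes passed. Without lowess 1 zinc exporter, 3 iron and 8 oxidative stress genes passed, and with normexp and loess 3 iron genes. Without the filter 1 zinc importer, 3 iron, 1 oxidative stress, 1 heat shock and 0 glucocorticoid-responsive genes passed. Without lowess 7 of 11 myogenic markers were lower in place of 10 and 6 of 8 fibroblast markers higher in place of 2. With the mean of all probes of a gene 3 zinc exporters and 0 iron genes passed. With 1 array left out, 0 to 0 iron, 1 to 3 oxidative stress, 1 to 7 heat shock and 1 to 4 glucocorticoid-responsive genes passed. Of 17 neighbours outside the copies 3 passed, but 1 in a Student t-test, 2 without lowess, without the filter, without array 1 or without array 3, and 5 with the mean of all probes of a gene.

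The ratio itself pairs the channels of an array. With no replicate block, the channels being taken as unpaired samples, 2226 probes, 1 zinc importer, 0 iron, 0 oxidative stress, 3 heat shock and 1 glucocorticoid-responsive genes passed. Signals of *LOC100630322* and of 4 probes of *LOC100630148* near the background, 1 dye orientation and 4 arrays limit these values.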
